A study of Mus musculus with 95 samples.

Results

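The enzymes described here break down fatty acids, and their mRNA was followed in mouse kidneys through the course of a lupus-like nephritis. They are the carnitine palmitoyltransferases Cpt1a and Cpt2, the acyl-CoA dehydrogenases Acadm, Acadl and Acadvl, the trifunctional protein subunit Hadhb and the peroxisomal bifunctional enzyme Ehhadh. Members were the probe sets whose only gene symbol in the array annotation is one of 8 listed enzymes. For 7 of the 8 this gave 9 probe sets, out of 45037 probe sets and 17097 genes in all, and Hadha, the partner subunit of Hadhb, was not analysed here. The 6 mitochondrial genes are set against a single peroxisomal gene, Ehhadh.

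All kidneys came from female SNF1 mice, the hybrid of the SWR and NZB strains, which develop nephritis on their own with age, so the untreated mice carry the same genotype as the injected ones. Pristane, a hydrocarbon oil, was given into the peritoneum once, at an age of 9 weeks, and weeks are counted from that day. The untreated groups held 7 mice at week 0, 10 each in weeks 2, 8 and 12, 9 at week 4 and 5 at week 14. The pristane-SNF1 groups held 9 mice at week 2, 10 at week 4, 8 each in weeks 8 and 12, and 9 at week 14. Each of the 95 samples is a whole-kidney RNA on an Affymetrix array, and values are log2 intensities after robust multi-array averaging (RMA). The untreated mice are the age-matched controls of each week, they received no injection, and no sample label names a batch.

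Long-chain fatty acids enter mitochondria as carnitine esters, which CPT1 forms at the outer membrane and CPT2 turns back into acyl-CoA inside. Acyl-CoA dehydrogenases then open each round of beta-oxidation, and the trifunctional protein, built of Hadha and Hadhb subunits, carries out the remaining steps on long chains. Peroxisomes run a parallel pathway, in which Ehhadh is a bifunctional enzyme of hydration and dehydrogenation. The proximal tubule, which makes up much of the kidney cortex, relies on fatty acid oxidation for its energy, and the nuclear receptor PPAR alpha (Ppara) is known as an activator of genes of both organelles.

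The promoter sequences of the 4 members with the lowest week 14 differences, Ehhadh, Acadm, Hadhb and Acadvl, are printed because the results turn on these genes. They are RefSeq windows of build GRCm38.p6 from 250 bases before to 50 bases after the gene start, read 5′ to 3′ on the gene's own strand, and all 7 members had one. Capitals mark AGGTCA, or its complement TGACCT, the half-site that PPAR and ERR nuclear receptors recognise.
Ehhadh, chr16:21787785-21788084, minus strand: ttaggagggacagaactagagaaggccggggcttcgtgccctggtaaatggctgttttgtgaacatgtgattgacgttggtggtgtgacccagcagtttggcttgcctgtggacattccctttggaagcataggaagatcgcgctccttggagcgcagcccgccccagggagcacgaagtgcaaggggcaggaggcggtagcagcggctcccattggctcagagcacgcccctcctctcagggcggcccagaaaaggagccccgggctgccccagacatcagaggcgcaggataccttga
Acadm, chr3:153944594-153944893, minus strand: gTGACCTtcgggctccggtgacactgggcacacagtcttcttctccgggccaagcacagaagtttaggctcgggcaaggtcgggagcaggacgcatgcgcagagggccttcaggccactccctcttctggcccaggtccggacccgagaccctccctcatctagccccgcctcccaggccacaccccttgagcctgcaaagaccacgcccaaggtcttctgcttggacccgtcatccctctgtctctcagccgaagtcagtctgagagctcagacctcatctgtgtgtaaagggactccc
Hadhb, chr5:30155003-30155302, plus strand: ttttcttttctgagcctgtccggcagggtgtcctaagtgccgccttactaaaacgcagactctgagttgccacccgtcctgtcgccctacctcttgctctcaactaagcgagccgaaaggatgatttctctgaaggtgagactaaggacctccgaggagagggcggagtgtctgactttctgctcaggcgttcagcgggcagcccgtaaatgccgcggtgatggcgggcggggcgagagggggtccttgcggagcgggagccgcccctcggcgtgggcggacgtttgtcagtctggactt
Acadvl, chr11:70015379-70015678, minus strand: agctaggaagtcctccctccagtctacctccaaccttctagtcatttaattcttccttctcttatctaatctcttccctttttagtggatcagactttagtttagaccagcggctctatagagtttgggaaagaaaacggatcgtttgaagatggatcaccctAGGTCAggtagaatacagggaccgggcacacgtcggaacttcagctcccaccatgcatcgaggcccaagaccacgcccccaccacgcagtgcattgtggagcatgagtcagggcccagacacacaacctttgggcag

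On both strands, AGGTCA occurred in 3 of the 7 member windows, those of Acadm, Acadvl and Cpt1a, and in 16.3% of all 32851 promoter windows. In the Acadm window the match begins 249 bases before the gene start, and in the Acadvl window 87 bases before it. The full direct repeat of PPAR elements, AGGTCANAGGTCA, which contains the half-site, was in 0 of 7 member windows and in 0.0396% of all windows. The ERR element TCAAGGTCA was likewise in 0 of 7, against 0.423% of all windows. GC boxes (GGGCGG) were in 5 of 7 member windows, Hadhb and Ehhadh among them, and in 35.7% of all windows. CCAAT was in 2 of 7, Ehhadh and Cpt1a, and in 37.4% of all. These matches are a description of the letters and not of binding. The Hadhb gene starts 273 bases from the start of Hadha, which runs the other way, so that 228 bases of the Hadhb window also belong to that of its partner subunit.

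All 7 genes were strongly expressed. The mean over the 95 arrays of the representative probe set, the brightest of each gene, lay between the 93.3 percentile of all probe sets for Cpt1a and the 99.3 percentile for Acadm. No array had any of these 7 probe sets at the floor of 2.21, the lowest value in the data. Acadl and Hadhb had a further probe set each. That of Acadl was at the floor on all 95 arrays and carries no measurement, and that of Hadhb had a mean of 7.38 and followed its representative weakly over the arrays (Pearson r = 0.212, n = 95). Array medians ranged from 4.23 to 4.57. Of the proximal tubule list 13 of 16 genes were measured, and none was at the floor on any array. Their means ran from the 52.4 percentile for Slc7a13 to the 99.8 percentile, that of Gsta2 among others.

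Through week 12 none of the 7 enzymes passed the adjusted test between pristane-SNF1 and untreated kidneys. At week 14 their means were all lower in pristane-SNF1 kidneys, with a median log2 difference of -0.50 over the 7 genes, and Hadhb passed. Within each week the groups were compared with limma over all 45037 probe sets, with Benjamini-Hochberg adjustment. At week 14, 1 of 7 genes passed an adjusted p of 0.05, against 8.31% of all probe sets in either direction and 3.73% that were lower. At an unadjusted p under 0.05 the count was 4 of 7, all lower, against 13.4% of all probe sets. The median difference over all probe sets was 0.00, and over the tenth of probe sets with the highest means it was -0.11.

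**Figure D1:**
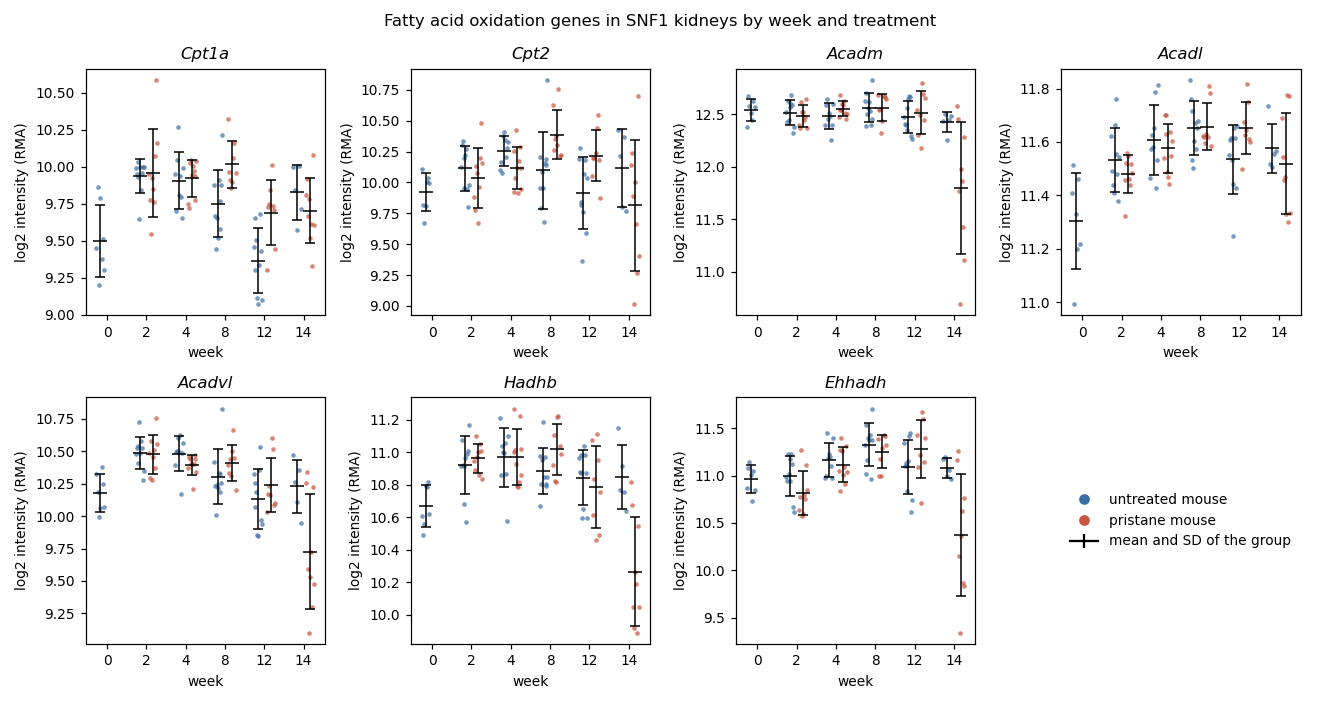
Log2 intensity of the 7 genes (vertical axis, RMA) against week (horizontal axis) in untreated and pristane-SNF1 kidneys; points are mice, and black bars show the group mean and SD. For Acadm, Acadvl, Hadhb and Ehhadh the pristane-SNF1 group of week 14 lies lowest and is the most spread, with a mean of 10.27 for Hadhb against 10.85 in untreated kidneys.

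Hadhb, the thiolase subunit of the trifunctional protein, was the gene that passed. In the 5 untreated kidneys of week 14 its log2 intensity was 11.15, 10.77, 10.92, 10.75 and 10.64. In the 9 pristane-SNF1 kidneys it was 10.82, 10.67, 10.05, 9.92, 10.26, 10.19, 9.89, 10.54 and 10.05, for mice 1 to 9. Of the 9, 7 lay below every untreated kidney, and mice 1 and 2 lay within the untreated range. The difference was -0.58 on the log2 scale (SE 0.163, 95% interval -0.93 to -0.23), a level 1.5-fold lower, with an adjusted p of 0.0474 in limma and of 0.0183 with weights for the unequal spread of the groups. This call lies close to the threshold. Its adjusted p lay over 0.05 in 11 of the 14 fits that left out 1 mouse, all but those without pristane mouse 1, 2 or 8, over a range from 0.0140 to 0.115. The second Hadhb probe set differed by -0.07 (adjusted p = 0.755).

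Ehhadh, the peroxisomal member, had the largest difference of the 7 and the widest spread. Untreated kidneys of week 14 measured 11.17, 11.20, 10.99, 11.06 and 10.97. Pristane-SNF1 mice 1 to 9 measured 11.16, 11.26, 10.15, 9.34, 10.36, 10.62, 9.86, 10.77 and 9.83. Of the 9, 7 were below all untreated kidneys, mouse 1 was within their range and mouse 2 above it. The SD was 0.643 in the pristane-SNF1 group and 0.104 in the untreated group. The difference of -0.71 (SE 0.289, 95% interval -1.33 to -0.08) did not pass after adjustment (adjusted p = 0.152, limma).

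Of the acyl-CoA dehydrogenases, Acadm and Acadvl had lower means at week 14, and the mean of Acadl was near the untreated one. Acadm, the medium-chain enzyme, measured 12.44, 12.50, 12.26, 12.45 and 12.49 in untreated kidneys of week 14, and 12.58, 12.46, 11.77, 10.70, 11.98, 11.86, 11.43, 12.28 and 11.12 in pristane-SNF1 mice 1 to 9. Of the 9, 6 pristane-SNF1 kidneys were below all untreated ones, while mouse 1 was above them. The difference was -0.63 (SE 0.281, adjusted p = 0.194, limma).
Acadvl, the very-long-chain enzyme bound to the inner membrane, measured 10.47, 10.26, 10.11, 10.36 and 9.95 in untreated kidneys. In pristane-SNF1 mice 1 to 9 it measured 10.25, 10.34, 9.60, 9.10, 9.53, 9.72, 9.30, 10.23 and 9.47. Here too 6 of 9 lay below all untreated kidneys, and mice 1, 2 and 8 lay among them. The difference was -0.50 (SE 0.209, adjusted p = 0.160, limma). Acadl, the long-chain enzyme of the matrix, ranged from 11.30 to 11.78 with a median of 11.47 in pristane-SNF1 kidneys and from 11.51 to 11.73 in untreated ones. Of the 9, 5 were below all untreated kidneys and 2 above all of them. Its difference of -0.06 had a 95% interval from -0.25 to 0.14 (adjusted p = 0.799, limma).

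Among the carnitine shuttle genes, the means were nearer to the untreated ones than those of Acadm and Acadvl. Cpt1a, the rate-controlling entry enzyme in its liver and kidney form, ranged from 9.33 to 10.08 with a median of 9.67 in pristane-SNF1 kidneys of week 14. In untreated kidneys it ranged from 9.58 to 10.01, and 2 of 9 pristane-SNF1 kidneys lay below that range. The difference was -0.13 (95% interval -0.37 to 0.12, adjusted p = 0.605, limma). Cpt2, the inner membrane enzyme, was more spread, from 9.02 to 10.70 with a median of 9.89, against 9.77 to 10.43 in untreated kidneys. The lowest was mouse 4 and the highest mouse 8, and 4 of 9 lay below all untreated kidneys. The difference was -0.30 (95% interval -0.86 to 0.25, adjusted p = 0.562, limma).

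**Figure D2:**
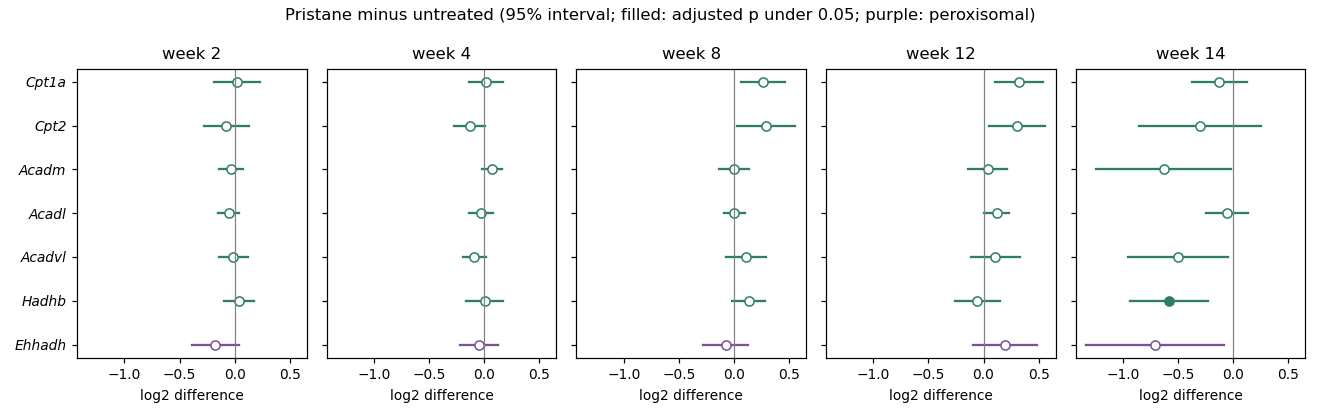
Pristane minus untreated log2 difference of each gene (horizontal axis) with its 95% interval, by week; filled circles passed an adjusted p of 0.05 in limma, and purple marks the peroxisomal gene. Hadhb at week 14, at -0.58, is the filled circle, and the intervals of week 14 are wider than those of earlier weeks.

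The same mice were low for several members. Pristane-SNF1 mice 1 and 2 of week 14 had 0 of 7 genes below the untreated range, mouse 8 had 2 (Hadhb and Ehhadh), and the other 6 mice had 5 to 7. Mouse 7 was below the untreated range for all 7 genes and mice 4, 5 and 9 for 6. Mouse 8 was also above the untreated range for 3 genes, Cpt1a, Cpt2 and Acadl. The mean difference of the 6 mitochondrial genes from the untreated mean of the week was 0.05, 0.02 and 0.10 in mice 1, 2 and 8, and between -0.84 in mouse 4 and -0.37 in mouse 6 in the others.

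Levels of other gene lists differed across the same mice, with mouse 8 as an exception to the match. The mean of the 13 proximal tubule genes lay between 10.55 and 10.76 in untreated kidneys of week 14. In pristane-SNF1 kidneys it ranged from 8.59 in mouse 4 to 10.57 in mouse 1 and 10.62 in mouse 2. After adjustment 4 of its 13 genes were lower, against 3.73% of all probe sets, with a median difference of -0.94. Among these 4 were Gsta2, a glutathione transferase, at -1.06, and Slc13a3, a dicarboxylate carrier, at -1.78. Leaving out 1 mouse gave 0 to 9 of 13, with none in 8 of 14 fits. The count was 8 without pristane mouse 1 (7.98% of all probe sets were lower in that fit) and 9 without mouse 2 (9.35%). With the adrenal gland list as a covariate it was 0, against 0.244% of all. The tubular injury list ranged from 5.32 to 5.76 in untreated kidneys and stood at 6.77 in pristane-SNF1 mouse 1 and 5.91 in mouse 2, against 7.85 to 9.47 in the other 7. Mouse 8, whose mitochondrial mean was above the untreated mean, stood at 10.12 for the proximal tubule list, below all untreated kidneys, and at 7.85 for the injury list, above them. Of the 7 injury genes, 5 were higher after adjustment, against 4.57% of all probe sets, led by Lcn2 at 5.28 and Havcr1 (kidney injury molecule 1) at 4.79. In the macrophage list 8 of 10 genes were higher, against the same 4.57%. Its level ranged from 4.92 to 5.52 in untreated and from 6.38 to 8.18 in pristane-SNF1 kidneys. In whole-kidney RNA, fewer cells of a type and less RNA per cell cannot be told apart. The part of these lists in the members' differences was not tested.

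**Figure D3:**
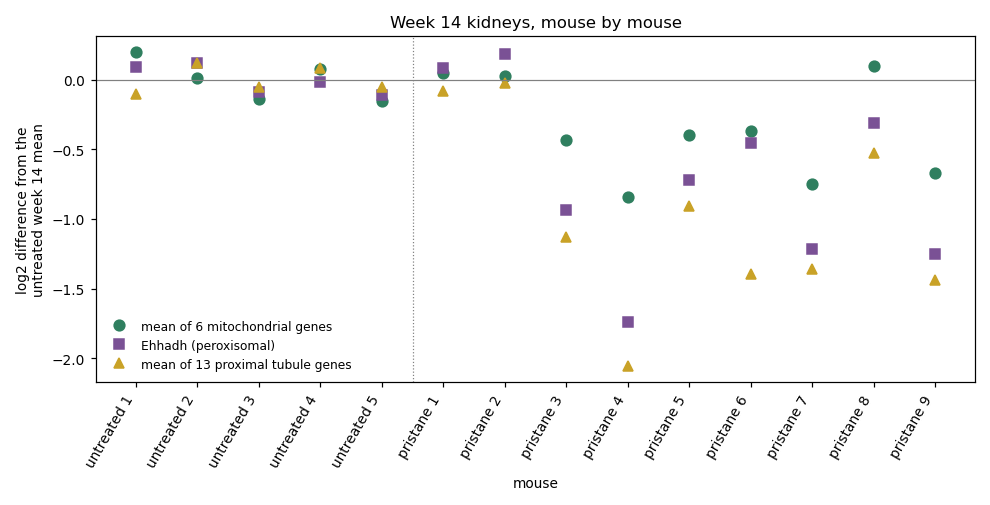
Log2 difference from the untreated mean of week 14 (vertical axis) for each mouse (horizontal axis), for the mean of the 6 mitochondrial genes, for Ehhadh and for the mean of 13 proximal tubule genes. Pristane-SNF1 mice 1 and 2 lie near 0 in all of these, and mouse 4 is lowest in all of them, at -0.84, -1.74 and -2.06.

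Some kidneys also carried RNA of neighbouring tissue. At week 14 the perirenal fat list, of which 9 of 12 genes were measured, ranged from 6.29 to 8.13 in untreated and from 4.81 to 6.97 in pristane-SNF1 kidneys. With that list as a covariate Hadhb still passed, at -0.70 (adjusted p = 0.0356, limma). The adrenal gland list, 11 of 12 genes measured, was between 3.35 and 3.64 in untreated kidneys and reached 5.94 and 5.26 in pristane-SNF1 mice 4 and 5. Of its genes, Cyp11b2 was at the floor on 79 of 95 arrays, Mc2r on 56 and Cyp11b1 on 39. Star, Cyp11a1 and Cyp21a1, with means of 6.70, 6.13 and 7.99, were at the floor on none. Hadhb no longer passed with this list as a covariate (-0.51, adjusted p = 0.136, limma), a fit in which 0.244% of all probe sets were lower. As the list varied little in untreated kidneys, that fit cannot fully separate adrenal signal from treatment. Hadhb also did not pass without those 2 mice (-0.53, adjusted p = 0.125). Mouse 4 was also the lowest for Acadm, Acadvl, Cpt2 and Ehhadh.

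Peroxisomal and mitochondrial members were set side by side in each mouse, as differences from each gene's mean over the untreated mice of all weeks. In untreated kidneys the mean of the 6 mitochondrial genes was -0.15 ± 0.095 (SD, n = 7) at week 0, 0.08 ± 0.068 (n = 10) at week 2 and 0.00 ± 0.149 (n = 5) at week 14. Ehhadh in the same kidneys was at -0.15 ± 0.147, -0.12 ± 0.214 and -0.03 ± 0.104. In pristane-SNF1 kidneys of week 14 the mitochondrial mean was -0.36 ± 0.355 and Ehhadh -0.74 ± 0.643 (SD, n = 9). Ehhadh lay below the mitochondrial mean in 7 of 9 of these mice, with a mean gap of -0.38, and in 2 of 5 untreated mice of that week. A lower Ehhadh was not limited to week 14. At week 2, Ehhadh was below the mitochondrial mean in 8 of 9 pristane-SNF1 and in 9 of 10 untreated kidneys, whereas at week 12 this held in 1 of 8 and 3 of 10. No test of the gap was made, as the members were chosen with earlier results known. Across the 95 arrays, after subtracting group means, the mitochondrial mean and Ehhadh correlated with r = 0.762, and with r = 0.592 without the 9 pristane-SNF1 arrays of week 14. With the proximal tubule list, r was 0.691 for the mitochondrial mean and 0.748 for Ehhadh, and 0.359 and 0.558 without those 9 arrays. The arrays share their groups and their normalization, so these values are descriptions.

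Among pairs of members over the 95 arrays, Acadm and Ehhadh, in different organelles, were the closest (r = 0.858), followed by Cpt2 and Acadvl (r = 0.789). Cpt1a and Hadhb were the least alike (r = 0.226). Over the 11 group means, Acadvl and Hadhb had the highest r, 0.936, and Cpt1a and Ehhadh the lowest, 0.101.

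At weeks 2 and 4 no member separated the groups. Counts in limma were 0 of 7 at week 2, against 0.249% of all probe sets, and 0 of 7 at week 4, against 0.138%, and at an unadjusted p under 0.05 they were also 0 of 7 in both weeks, against 7.15% and 4.88%. Log2 differences ran from -0.18 to 0.04 at week 2 and from -0.13 to 0.07 at week 4. The lowest at week 2 was Ehhadh, which ranged from 10.57 to 11.27 with a median of 10.77 in 9 pristane-SNF1 kidneys and from 10.62 to 11.23 with a median of 10.999 in 10 untreated ones. Of the 9, 2 were below the untreated range and 1 above it, and the difference was -0.18 (SE 0.102, adjusted p = 0.799, limma). Against the untreated mice of all weeks it was -0.29 (adjusted p = 0.0459), past the threshold. Of the 9, 8 pristane-SNF1 kidneys of week 2 carried adrenal signal over 1 above the median of all arrays, against 3 of 10 untreated ones, and the part of this in the Ehhadh value was not tested.

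At weeks 8 and 12 the carnitine shuttle genes stood above their untreated level, without passing the adjusted threshold. The counts were 0 of 7 at both weeks, against 0.0866% and 0.0244% of all probe sets, and at an unadjusted p under 0.05 they were 2 of 7 at week 8 (3.63% of all) and 3 of 7 at week 12 (6.17% of all), all higher. Cpt1a at week 8 ranged from 9.86 to 10.32 with a median of 9.96 in pristane-SNF1 kidneys and from 9.45 to 10.21 with a median of 9.72 in untreated ones, and all 8 pristane-SNF1 kidneys exceeded the untreated mean. The difference was 0.26 (SE 0.0932, p = 0.0116 before adjustment in limma, adjusted p = 1). At week 12, Cpt1a ranged from 9.30 to 10.01 with a median of 9.73 in pristane-SNF1 kidneys, against 9.07 to 9.68 with a median of 9.38. Of the 8, 6 pristane-SNF1 kidneys lay above the whole untreated range, and the difference was 0.32 (SE 0.103, adjusted p = 0.596, limma). The untreated kidneys of week 12 had the lowest Cpt1a mean of all 11 groups, 9.37, and against the untreated mice of all weeks the difference was -0.022 (adjusted p = 1). Among these controls, mouse 10 stood at 7.79 for the tubular injury list and 8.02 for the macrophage list, and mouse 2 at 5.93 and 6.15. The others lay between 5.15 and 5.36 and between 4.29 and 4.82. The part of this in the member values of week 12, which also enter the comparison of effects below, was not tested. Cpt2 was higher by 0.29 (SE 0.125) at week 8 and by 0.30 (SE 0.120) at week 12, and at week 8 its highest value, 10.83, belonged to an untreated mouse. Acadl differed by 0.12 at week 12 (SE 0.0542, adjusted p = 0.803). None of these differences passed after adjustment.

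Whether the effect of pristane at week 14 differed from that at week 12 was tested as an interaction in limma. After adjustment 0 of 7 genes passed, as did 0% of all 45037 probe sets. At an unadjusted p under 0.05 the count was 6 of 7, all toward lower values at week 14, against 11.3% of all probe sets in that direction. The difference of effects was -0.90 for Ehhadh (SE 0.298, adjusted p = 0.115), -0.67 for Acadm, -0.61 for both Acadvl and Cpt2, -0.52 for Hadhb and -0.45 for Cpt1a. It was -0.17 for Acadl, the one gene that stayed over an unadjusted p of 0.05. In the fit of all 11 groups with a shared spread, 6 of 7 passed after adjustment, against 7.73% of all probe sets in the same direction. The spread was unequal, with an Ehhadh SD of 0.643 in pristane-SNF1 kidneys of week 14 and the next largest, 0.308, in those of week 12. A shared spread can thus be too small for contrasts with week 14. The week 14 effect itself reached 4 of 7 in that fit, against 11.8% of all that were lower, with Acadm, Acadvl and Ehhadh beside Hadhb. Without pristane mouse 1 of week 14 the count for the interaction was 2 of 7 (4.65% of all probe sets were called in that direction) and without mouse 2 it was 3 of 7 (5.89%).

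The course over weeks within each treatment was tested with the moderated F-test of limma. In untreated kidneys 4 of 7 genes varied over weeks 0 to 14, against 32.9% of all probe sets, and these were Cpt1a (adjusted p = 6.00e-06), Acadl (0.000697), Acadvl (0.00113) and Ehhadh (0.0265). In the order of the 6 untreated groups from week 0 on, Cpt1a means were 9.50, 9.93, 9.91, 9.75, 9.37 and 9.83, so the level was low at weeks 0 and 12. Acadl was lowest at week 0, with a mean of 11.30, and between 11.53 and 11.65 later. Without week 0 the count was 2 of 7, Cpt1a and Acadvl, against 10.8% of all. In pristane-SNF1 kidneys 7 of 7 genes varied over weeks 2 to 14, against 33.9% of all probe sets. Without week 14 the count was 2 of 7, Acadl and Ehhadh, against 14.4% of all, and without week 8 it was 4 of 7, against 33.2%.

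In the order of the 11 group means, the pristane-SNF1 kidneys of week 14 were lowest for Acadm, Acadvl, Cpt2, Hadhb and Ehhadh. For Acadm the step to the next group, untreated week 14, was 0.63, just over the larger SD of the 2 groups, 0.626. For Hadhb the step to untreated week 0 was 0.40, over an SD of 0.337. All other neighbours in the order, for all 7 genes, differed by less than the larger of their SDs. The lowest group was untreated week 12 for Cpt1a and untreated week 0 for Acadl. Pristane-SNF1 week 8 was highest for Cpt1a, Cpt2, Acadm, Acadl and Hadhb, untreated week 2 for Acadvl and untreated week 8 for Ehhadh.

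Other enzymes of the same pathways had lower values at week 14 as well, and few passed. Of 13 other mitochondrial beta-oxidation genes, 3 were lower after adjustment, against 3.73% of all probe sets, and none was higher. At an unadjusted p under 0.05, 11 were lower, against 13.4% of all. The median difference was -0.58, against 0.00 over all probe sets. Echs1, the short-chain enoyl-CoA hydratase, measured 10.02, 10.14, 10.14, 10.005 and 10.02 in untreated kidneys of week 14 and 9.83, 10.03, 8.91, 8.44, 9.25, 8.75, 8.62, 9.57 and 8.50 in pristane-SNF1 mice 1 to 9. Of the 9, 8 were below the untreated range, and the difference was -0.96 (SE 0.266, adjusted p = 0.0450, limma). Acad11, an acyl-CoA dehydrogenase, was lower by a log2 difference of -1.15 (SE 0.285, adjusted p = 0.0324), with 8 of 9 kidneys below the untreated range. Cpt1b, the muscle form of CPT1, is also made in fat, and its signal was low. Its mean over all arrays was 3.74, the 44.4 percentile of all probe sets, against 9.90 for Echs1 and 9.33 for Acad11. At week 14 its mean was 3.20 in pristane-SNF1 and 3.83 in untreated kidneys, with the floor at 2.21. All 9 pristane-SNF1 kidneys lay below all untreated ones, a separation that 0.668% of all probe sets showed. The Cpt1b difference was -0.63 (SE 0.150, adjusted p = 0.0288), and with the perirenal fat list as a covariate it was -0.52 (adjusted p = 0.0830).

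Of 16 other peroxisomal beta-oxidation genes, 2 were lower after adjustment, against 3.73% of all probe sets, and none was higher. At an unadjusted p under 0.05, 9 were lower, against 13.4% of all, and the median difference was -0.42. Acox2, the oxidase of bile acid intermediates and branched chains, measured 7.96, 8.13, 8.01, 8.39 and 7.99 in untreated kidneys. In pristane-SNF1 mice 1 to 9 it measured 7.66, 8.26, 6.62, 5.399, 6.57, 6.64, 6.38, 6.83 and 6.13. Of the 9, 8 were below the untreated range and mouse 2 was within it, and the difference was -1.37 (SE 0.376, adjusted p = 0.0442, limma). Scp2, the peroxisomal thiolase and sterol carrier, was lower by a log2 difference of -0.67 (adjusted p = 0.0413). Hsd17b4, the other bifunctional enzyme of peroxisomes, differed by -0.45 (SE 0.145, adjusted p = 0.0712) with 6 of 9 kidneys below the untreated range. The counts of both lists rested on single mice. Without pristane mouse 2 they were 10 of 13 and 7 of 16 (9.35% of all probe sets were lower in that fit), without mouse 1 they were 9 of 13 and 5 of 16 (7.98%), and without mouse 8 they were 3 of 13 and 2 of 16 (2.85%). Leaving out any other mouse of week 14, untreated ones included, gave at most 1 of 13 and 0 of 16. With the adrenal list as a covariate both counts were 0, against 0.244% of all, and with the perirenal fat list they were 6 of 13 and 7 of 16, against 7.49%.

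**Figure D4:**
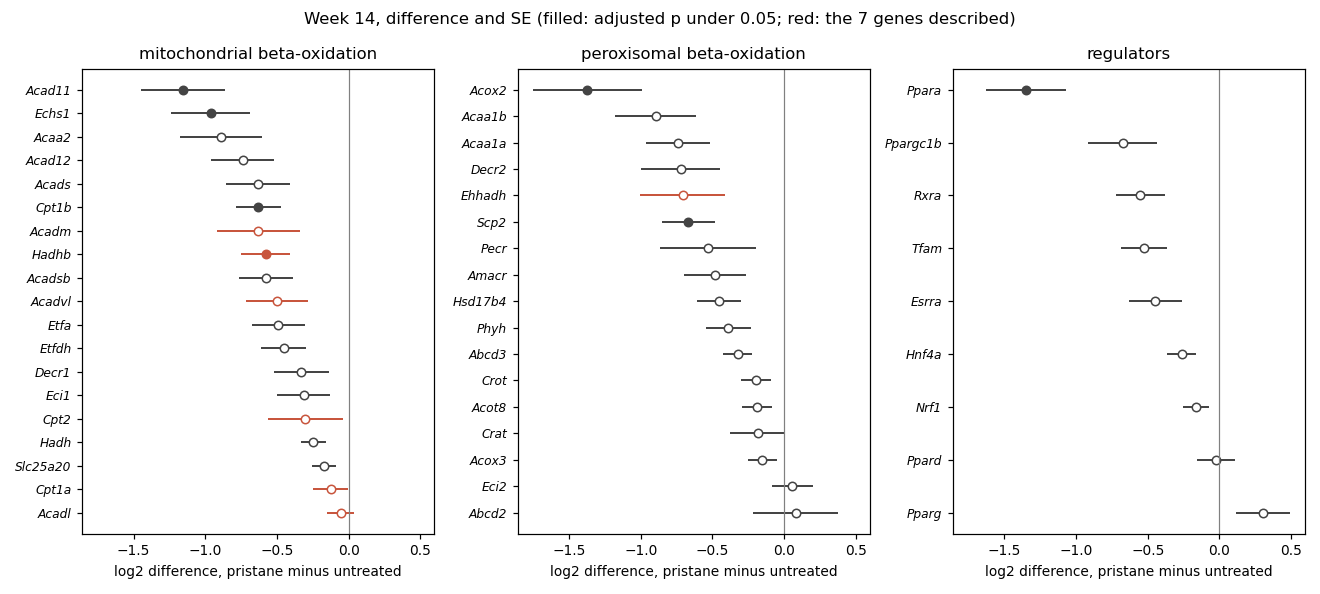
Week 14 log2 difference with its SE (horizontal axis) for genes of mitochondrial beta-oxidation, of peroxisomal beta-oxidation and for regulators; filled circles passed an adjusted p of 0.05 in limma, and the 7 genes described are in red. All 13 other mitochondrial and 14 of 16 other peroxisomal genes lie to the left of 0, with Acox2 at -1.37 and Acad11 at -1.15 the farthest.

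Among 9 regulators, Ppara was lower after adjustment, as were 3.73% of all probe sets, and none was higher. It measured 6.69, 6.96, 6.57, 7.24 and 6.50 in untreated kidneys of week 14 and 6.02, 6.52, 4.91, 4.85, 5.33, 4.79, 5.30, 5.59 and 5.67 in pristane-SNF1 mice 1 to 9. Of the 9, 8 lay below the untreated range, and mouse 2 was within it. The difference was -1.35 (SE 0.275, adjusted p = 0.0175, limma), -1.69 with the perirenal fat list as a covariate and -1.16 with the adrenal list (adjusted p = 0.0491). The call was lost without untreated mouse 2 or 4 of week 14, where 0 of 9 regulators passed. The count of regulators rose to 4 without pristane mouse 1 (7.98% of all probe sets were lower in that fit), 5 without mouse 2 (9.35%) and 2 without mouse 8 (2.85%). Esrra, the receptor ERR alpha, differed by -0.45 (SE 0.177, adjusted p = 0.139), with 6 of 9 kidneys below the untreated range and mouse 8 above it. The median of the regulators was -0.45, and Pparg was the one with a positive value, 0.30 (adjusted p = 0.375).

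Of 11 genes known as PPAR alpha targets outside beta-oxidation, 1 passed as higher at week 8 and 1 at week 12. Over all probe sets, 0.0866% and 0.0244% passed in these weeks. At an unadjusted p under 0.05, 4 and 8 of the 11 were higher, with medians of 0.18 and 0.34. The shares over all probe sets, in either direction, were 3.63% and 6.17%. At week 14, 1 was lower and 1 higher, against 3.73% and 4.57% of all probe sets, and the median was -0.03. Slc25a42, the mitochondrial coenzyme A carrier, was lower (-1.46, SE 0.40, adjusted p = 0.0440, limma), and Plin2, which coats lipid droplets, was higher (0.63, SE 0.171, adjusted p = 0.0434). In 12 of the 14 fits without 1 mouse, all but those without pristane mouse 1 or 2, no gene of this list passed. Of 12 genes of fatty acid uptake and activation, Fabp3, a fatty acid binding protein, was lower (-0.79, adjusted p = 0.0431, limma), as were 3.73% of all probe sets. The acyl-CoA synthetases Acsl4 (0.48, adjusted p = 0.0296) and Acsl5 (0.38, adjusted p = 0.0312) were higher, as were 4.57% of all probe sets. No gene of the uptake list passed in 9 of the 14 fits without 1 mouse, and without pristane mouse 2 the count was 4 lower and 2 higher. The fatty acid synthesis list had 3 of 8 genes lower, against 3.73% of all probe sets, and none higher, with a median of -0.56. These were Elovl6, a chain-elongating enzyme, at -1.07, Acacb, which makes the malonyl-CoA that inhibits CPT1, at -0.95, and Mlycd at -0.54. Mlycd degrades malonyl-CoA and is thus no enzyme of synthesis. Leaving out 1 mouse gave 0 to 4 of 8 for this list, with none in 6 of 14 fits. The count was 4 without pristane mouse 1 or 2, where 7.98% and 9.35% of all probe sets were lower. With the adrenal gland list as a covariate no gene of the target, uptake and synthesis lists passed, and 0.244% of all probe sets were lower in that fit.

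Genes with the most similar course were sought among 12087 others with a mean over the 40th percentile. Over the 11 group means, the closest to the mitochondrial mean were Decr1 (r = 0.979), a mitochondrial dienoyl-CoA reductase, Zfp667 (r = 0.978) and Cpeb3 (r = 0.973). The closest to Ehhadh were Hspa9 (r = 0.963), Slc17a3 (r = 0.960) and Uhmk1 (r = 0.953). Over the 95 arrays after subtracting group means, the closest to the mitochondrial mean were Slc22a5 (r = 0.782), the carnitine transporter of the plasma membrane, Coasy (r = 0.777), an enzyme of coenzyme A synthesis, and Slc25a10 (r = 0.761), a mitochondrial dicarboxylate carrier. To Ehhadh they were the organic anion transporters Slc22a19 (r = 0.825) and Slc22a7 (r = 0.824) and Fam25c (r = 0.806).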

How the data were processed

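Kidney RNA was measured on Affymetrix arrays, and the deposited table holds log2 values that the authors made with RMA, in Partek per the labels. All 95 arrays were used, grouped by treatment and week as labelled. After 104 control probe sets were left out, 45037 were tested. The lowest value, 2.21, is shared by 18.6% of all values and is called the floor, and the number of arrays limits the precision. Genes were named from the array annotation, in which 28898 probe sets have 1 symbol, 551 several and 15588 none, and a gene was represented by its brightest probe set. Promoter sequences came from RefSeq. The planned count over 8 members became 7, as Hadha had no probe set with that symbol in the annotation used.

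Groups were compared within each week with limma 3.58.1 in R 4.3.3, two-sided, with Benjamini-Hochberg adjustment over all probe sets and a threshold of 0.05. The labels do not say whether mice of a group came from separate experiments, so p-values measure the spread between these mice. On simulated data with the spread of week 14 over 45037 probe sets, limma called 50% of 100 probe sets given a log2 change of 0.6 and 87% of 100 given 1.5. Of its 186 calls, 49 fell on probe sets without a change, and in 47 of these the 5 untreated mice were the more spread group, which limma pools with the other. The simulated probe sets varied independently of each other, and only those given a change differed. In the real data of week 14, 8.31% of all probe sets passed and single mice were low for many genes together. The simulated shares thus do not carry over to the real calls.

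The members and lists were chosen with earlier results of these data known. Named by rule were all members, up to 4 genes per fatty acid list with the largest difference among those past the threshold at week 14, Ppara, Ppargc1a, Esrra and Hsd17b4 (Ppargc1a not analysed here), and the 3 genes most alike in course to the mitochondrial mean and to Ehhadh. Of the marker lists up to 3 genes each were named. Pparg was named after its value was seen. Alternatives were median centring, quantile normalization, a filter at the 40th percentile, a trended robust fit, an adjusted p of 0.01, a fold change over 2, the mean over probe sets of a gene, a joint fit of the 11 groups, controls pooled from every week, group-wise array weights, a replicate block, adrenal or perirenal fat signal as a covariate, and leaving out each mouse. Leaving out arrays with adrenal signal or single weeks, and the covariates for the lists, were chosen after seeing the data.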

Additional observations from a re-analysis of the deposited data

Results flagged for a closer look

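Within the 11 groups of 5 to 10 mice, single mice stood apart from the rest by Dixon's test in 7 of 77 combinations of gene and group, and chance gives about 1 in 20. In pristane-SNF1 kidneys these were Acadl in mouse 1 of week 2, lowest at 11.32 with the next at 11.44, and Acadvl in mouse 6 of week 4, lowest at 10.21. In untreated kidneys they were Acadm in mouse 3 of week 14, lowest at 12.26, Acadl in mouse 1 of week 14, highest at 11.73, and Cpt1a in mouse 5 of week 2, lowest at 9.65. Mouse 10 of untreated week 8 was highest for both Cpt2, at 10.83, and Acadvl, at 10.83. None of the pristane-SNF1 mice of week 14 stood apart in this way.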

How the results depend on the processing

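The counts for weeks 4, 8 and 12 were 0 of 7 under every alternative run. At week 14 the count of 1 became 0 at an adjusted p of 0.01, with a minimum fold change of 2, with adrenal signal as a covariate and without arrays with adrenal signal. It was 4 in the single fit of 11 groups and with all untreated mice as controls, which also brought week 2 to 1 (Ehhadh). Leaving out 1 mouse gave 0 to 1 at week 14 and 0 to 3 for the interaction of weeks 14 and 12, which was 6 in the single fit. Over weeks, untreated kidneys had 4 genes, and 2 without week 0. Pristane-SNF1 kidneys had 7, and 4 at an adjusted p of 0.01, 4 without week 8 and 2 without week 14. The replicate numbers were not treated as pairs. Same-numbered arrays correlated over 0.1 in 1 of 8 pairs at week 12 and at most 5 of 9 at week 2, which does not exclude pairing. With the replicate block the week 14 count was 0. Cpt1a at week 12 turned to -0.022 against all untreated mice, and Ehhadh at week 2 to 0.058 without arrays with adrenal signal, which left 1 pristane-SNF1 mouse. The causes of these shifts were not tested beyond the smaller number of mice where some were left out. With 5 untreated mice at week 14, differences under about the printed intervals cannot be resolved.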
